A study of Homo sapiens with 8 samples.

Results

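Interferons are secreted alarm signals, and this is an account of the genes that carry their signal and answer to it, apart from the IFIT genes, in breast cancer cells given TGFβ. A list of 53 symbols was taken: an interferon, its receptor chains and kinases, the transcription factors behind them, sensors of viral RNA, and induced antiviral and antigen-processing genes. Of these, 52 were measured on probe sets that name a single gene, among 19777 genes in all, and STAT2 was not analysed here. Where a gene had several probe sets, the one with the highest mean stood for it. The cells were MDA-MB-231, an established human line grown from a spread breast tumour, infected with a retroviral construct that makes a small hairpin RNA against GFP, a protein these cells do not normally make, as a control. They had been without serum for 24 h. One group of 4 arrays came from cells given TGFbeta, per the labels at 5 µg/ml for 3 h, and the other 4 arrays came from untreated cells. That dose unit is doubtful, since this cytokine is commonly used in ng/ml. Arrays of cells depleted of mutant p53 were not analysed here. The arrays of a group are lettered A to D and are called biological replicates, but no label says that they were separate cultures, so the p-values speak of the spread among arrays, which may be technical. All values are RMA signals on a log2 scale, so that a difference of 1 is a doubling.

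Type I interferons such as interferon beta bind the receptor chains IFNAR1 and IFNAR2, which activate the kinases TYK2 and JAK1. These phosphorylate STAT proteins, which join IRF9 and bind a promoter motif known as the interferon-stimulated response element (ISRE). Interferon gamma works through IFNGR1 and IFNGR2 and a second motif, the gamma-activated site (GAS). IRF1 and IRF2 bind motifs much like the ISRE: IRF1 is an activator, and IRF2 was first described as its competitor and repressor. Many of the induced genes block viruses, and some are expressed at some level without added interferon.

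The arrays matched their treatment labels. SMAD7, the inhibitory SMAD induced by the TGFβ pathway itself, had a signal of 7.28 to 7.99 after TGFβ and of 5.51 to 6.50 in untreated cells. SKIL, another target, was higher in 4 of 4 pairs (log2 difference 1.41; limma adjusted p = 0.157; 0.00205 with the block). VIM (13.6 to 13.8 on all arrays), CD44 and ANXA1, markers of the mesenchymal character of this line, were high. Of the hormone receptor genes PGR (3.03 to 3.34) was low, and ESR1 (5.66 to 5.91) lay mid-range, above 49.9% of genes. That ESR1 signal is from the strongest of its 9 probe sets, one ending in _x_at, and does not by itself show that the gene was expressed. GATA3, a luminal factor, was not low (6.92 to 7.76). CDH1, an epithelial cadherin, was low in both groups but higher after TGFβ (4.98 ± 0.18 in treated and 4.08 ± 0.12 in untreated cells, SD, n = 4 each; limma adjusted p = 0.00579). Of 4 leukocyte and 3 fibroblast markers none passed the test of treated against untreated cells in limma, with or without the letter as a block, and the largest of their log2 differences was 0.15. That test compares treatments and cannot show whether other cell types were present. The mean signals of these markers were above those of 13.4% (MS4A1) to 42.3% (PDGFRA) of genes.

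Among the 52 genes 1 fell after TGFβ and none rose. The gene was IRF2, and 3 more fell in a second fit that takes the letter as a replicate block: PARP9, the RNA sensor RIGI and the kinase EIF2AK2. The test was limma over all 19777 genes, with a Benjamini-Hochberg adjusted p under 0.05 as the threshold, and it called 0.222% of all genes lower and 0.354% higher. With the block it called 2.18% of all genes lower and 1.39% higher, beside 4 of the 52 (7.69%) lower and 0 higher. The letters were taken to pair the arrays, although no label names a block. Arrays of 1 letter deviated together in every pair, with correlations of 0.49, 0.69, 0.34 and 0.30 for A to D. For C and D the pairing is less clear, as treated D correlated at 0.33 with untreated C, and treated C at 0.31 with untreated D. If the pairing holds, the block removes a spread that the first fit keeps. Of PARP9, RIGI and EIF2AK2, RIGI alone passed the block fit without letter D, and none passed without B or C, when 3 pairs remained. Without A all 3 did, in a fit that called 1304 of all genes. The fits without B, C and D called 288, 321 and 356. In 6 of the 52 genes (11.5%) the 4 treated signals lay below all 4 untreated ones, against 2.21% of all genes. They were IRF2, PARP9, RIGI, EIF2AK2, the RNA sensor IFIH1 and the ligase HERC5. The opposite pattern was seen in 0 of the 52, against 2.9% of all genes. Treated cells were lower in all 4 same-letter pairs for 12 of the 52 (23.1%), against 10.7% of all genes, and higher in all 4 for 1, DHX58, against 11.7% of all genes.

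Small negative differences were common in the list. The log2 difference, treated minus untreated, was negative in 39 of the 52 genes (75.0%), against 47.3% of all genes. Its median was -0.08, against 0.01 over all genes, so the typical shift was far smaller than that of IRF2. The list is not like all genes in signal, as 45 of the 52 lay above the median gene signal. Among the upper 60% of signals the median was -0.0975 for the 47 list genes kept and -0.0185 for all genes kept. The middle of the list, between its 10th and 90th percentiles, ran from -0.38 to 0.09, and that of all genes from -0.21 to 0.18.

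**Figure D1:**
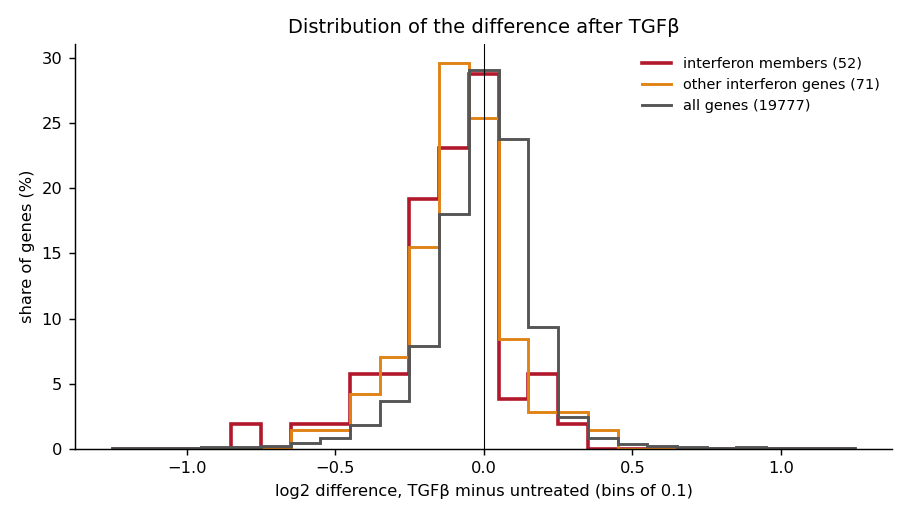
Share of genes (percent, vertical axis) in bins of the log2 difference between TGFβ-treated and untreated cells (horizontal axis), for the 52 interferon genes, 71 other interferon genes and all 19777 genes. The interferon curves lie a little to the left of that of all genes, with medians of -0.08, -0.09 and 0.01.

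Of the 5 transcription factors measured, 1 fell and 4 did not pass. IRF2 (Entrez Gene 3660, 1 probe set) had signals of 5.77, 5.49, 5.56 and 5.53 in the treated arrays A to D and of 6.52, 6.67, 6.31 and 6.19 in the untreated ones. All treated arrays were lower than all untreated arrays, and the gap between the group means was wider than the range within either group. The means were 5.59 ± 0.13 after TGFβ and 6.42 ± 0.21 in untreated cells (SD, n = 4 each), which is 1.78-fold lower (log2 difference -0.83 ± 0.12 SE, limma adjusted p = 0.0132; 0.00131 with the block). Without treated replicate D it did not pass (-0.81, adjusted p = 0.0693), and it passed in the other 7 fits that left out 1 array. IRF1, the activator, had 7.12, 6.46, 7.21 and 7.01 in treated cells and 7.10, 7.11, 7.61 and 7.56 in untreated cells. On this probe set the groups overlapped: letter A showed no fall, and treated replicate B was the lowest array. The other IRF1 probe set had -0.35 and was lower in every letter, A included (5.99 treated, 6.20 untreated). Its groups also overlapped, and it passed in neither fit. The IRF1 difference of -0.39 ± 0.18 SE on the first probe set did not pass (limma adjusted p = 0.639, and 0.102 with the block). Of the 4 limma block fits without 1 letter, it passed only in that without A (-0.53, adjusted p = 0.00567). The highest adjusted p among them was 0.393. Letter A was the pair without a fall on this probe set, and the fit without it called 1304 of all genes. IRF9, the partner of the STAT proteins, was lower in 4 of 4 pairs (7.40 ± 0.16 in treated and 7.69 ± 0.28 in untreated cells, SD, n = 4 each). IRF3 and IRF7, which switch on interferon genes after RNA is sensed, averaged 8.45 and 7.36 in treated cells and 8.55 and 7.24 in untreated cells.

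**Figure D2:**
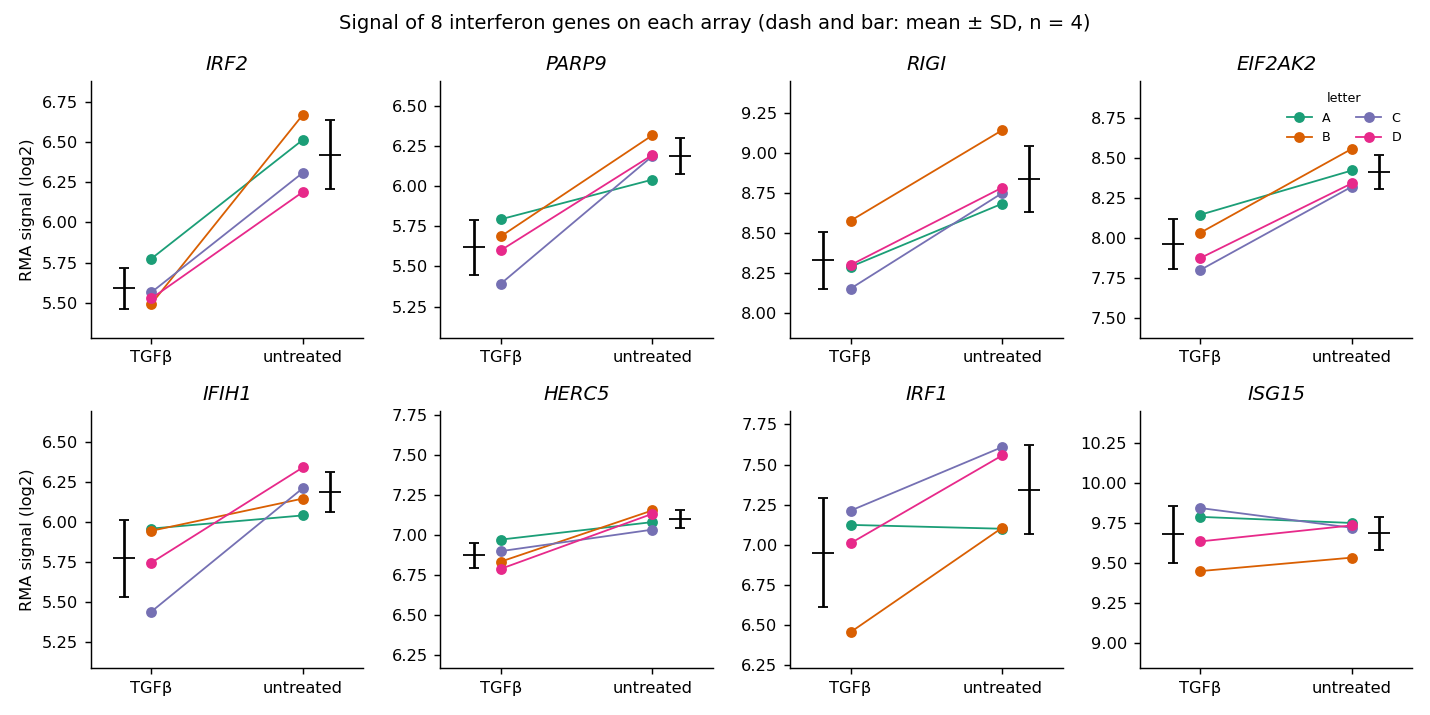
RMA signal (log2, vertical axis) of 8 interferon genes on the TGFβ arrays (left) and the untreated arrays (right), with lines joining arrays of the same letter and black bars for the mean ± SD (n = 4). Every panel spans the same range of 1.6 log2 units. IRF2, PARP9, RIGI, EIF2AK2, IFIH1 and HERC5 have no overlap between groups, whereas the groups of IRF1 and ISG15 overlap.

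Of the 3 sensors of viral RNA and their adaptor, RIGI fell in the fit with the block, and the others passed in neither fit. RIGI encodes the sensor RIG-I, a helicase that recognises short viral RNA. Its signals were 8.29, 8.58, 8.16 and 8.30 in treated cells and 8.68, 9.14, 8.75 and 8.78 in untreated cells. Letter B was highest in both groups, and every treated array still lay below every untreated one. The difference was -0.51 ± 0.13 SE, 1.42-fold lower, which passed only with the block (limma adjusted p = 0.157; 0.00809 with the block), and all 3 probe sets of RIGI were lower by 0.51 to 0.64. IFIH1, which encodes the related sensor MDA5 for long double-stranded RNA, had 5.96, 5.95, 5.44 and 5.75 in treated cells and 6.04, 6.15, 6.21 and 6.34 in untreated cells. The treated arrays lay just below the untreated ones for A and further below for C and D. Its difference of -0.41 ± 0.13 SE did not pass (limma adjusted p = 0.303, and 0.101 with the block). The others of its 3 probe sets were weak, with mean signals of 2.61 and 2.52 against 5.98, and had 0.17 and -0.01. Averaged over the 3 the difference was -0.08, which rests largely on these weak signals. DHX58, the third helicase of this family, pointed the other way, at 5.55, 5.35, 5.58 and 5.45 in treated cells and 5.33, 5.15, 5.36 and 5.38 in untreated cells, and its difference of 0.18 did not pass. MAVS, the mitochondrial adaptor on which RIG-I and MDA5 converge, had -0.12 on the probe set used, but the other 3 of its 4 probe sets had 0.03 to 0.10.

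The ligand, its receptors and their kinases gave no call in either fit. IFNB1, which encodes interferon beta, had 3.30 ± 0.20 after TGFβ and 3.29 ± 0.18 in untreated cells (SD, n = 4 each). Only 15.6% of genes had a lower mean signal, and there RMA, which gives no detection calls, cannot tell a signal from background. IFNAR2 differed by 0.09. IFNAR1 had signals of 6.17, 7.02, 6.68 and 6.81 in treated cells and 6.08, 7.13, 7.08 and 7.21 in untreated cells, with letter A lowest in both groups. IFNGR1 (8.18 ± 0.30 in treated and 8.40 ± 0.08 in untreated cells) and IFNGR2 (9.09 ± 0.17 in treated and 8.87 ± 0.18 in untreated cells), the chains of the interferon gamma receptor, differed by -0.22 and 0.22, with IFNGR1 lower and IFNGR2 higher in letters C and D. Neither passed (limma adjusted p = 0.8 and 0.745, n = 4 each). JAK1 and TYK2 differed by 0.02 and -0.08, with intervals from -0.22 to 0.27 and from -0.30 to 0.14. The interval of JAK1 is that of 1 probe set, and its next probe set by mean signal had -0.245, which did not pass.

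Among the genes that act on double-stranded RNA, EIF2AK2 fell in the fit with the block. It encodes the kinase PKR, which halts translation when it binds such RNA. Its signals were 8.15, 8.03, 7.80 and 7.88 in treated cells and 8.42, 8.56, 8.32 and 8.34 in untreated cells, and the groups did not overlap. The difference was -0.45 ± 0.10 SE, 1.36-fold lower (limma adjusted p = 0.123, and 0.0181 with the block). Its 3 probe sets agreed in sign, but the others had only -0.17 and -0.30, with overlapping groups. Their average was -0.30 (limma adjusted p = 0.167 without the block). The OAS genes encode synthetases of the 2-5A messenger that activates an RNA-degrading enzyme. OAS1 and OAS2 were lower in 4 of 4 pairs, at -0.25 each, and neither passed. The values for OAS2 were an adjusted p of 0.526 in limma, and 0.187 with the block. The other probe set of OAS1 had -0.30, without overlap between the groups. Those of OAS2 had -0.41 and -0.21, with overlap, and none of these passed in either fit. OAS3 (0.03) and OASL (-0.05) lay near 0, with letter C higher and the other letters lower after TGFβ. ADAR, which edits double-stranded RNA, had 9.70 ± 0.07 and 9.76 ± 0.07 (SD, n = 4 each) in treated and untreated cells.

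The classical antiviral effectors showed no call among 9 genes in either fit. MX1, a GTPase that traps viral capsids, had 5.73, 5.59, 5.99 and 6.07 after TGFβ and 6.04, 6.14, 5.96 and 6.19 in untreated cells. Letters A and B were lower by 0.31 and 0.56, D by 0.12, and letter C was higher by 0.04. Its difference of -0.24 ± 0.12 SE did not pass (limma adjusted p = 0.703; 0.32 with the block). TRIM22, a ubiquitin ligase, was lower in 4 of 4 pairs by a mean of 0.24 on the log2 scale and did not pass (limma adjusted p = 0.655; 0.208 with the block). BST2, which tethers budding virus to the cell, had 9.87 ± 0.22 in treated and 9.85 ± 0.15 in untreated cells (SD, n = 4 each), and IFITM1, ISG20 and TRIM21 had log2 differences of -0.02, -0.01 and -0.07. SAMD9 had its highest signals in letter B of both groups, at 6.92 and 6.72 in the treated and untreated B arrays against 5.32 to 6.02 on the other 6. The signals of RSAD2 (3.08 to 3.55) were above those of only 15.7% of genes, and MX2 (4.08 to 4.67) was also weak.

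The ISG15 system attaches the ubiquitin-like protein ISG15 to other proteins and removes it. ISG15 itself, strongly induced by interferon, had 9.79, 9.45, 9.84 and 9.64 in treated cells and 9.75, 9.54, 9.72 and 9.74 in untreated cells. The groups covered each other, and the difference of -0.01 had an interval from -0.25 to 0.23. HERC5, the ligase that conjugates ISG15, had 6.97, 6.83, 6.90 and 6.79 in treated cells and 7.08, 7.15, 7.03 and 7.13 in untreated cells. This was a small separation without overlap, at -0.23 ± 0.08 SE, that did not pass (limma adjusted p = 0.464; 0.232 with the block). USP18, the protease that removes ISG15, was weak, at 3.86 to 4.44, with a log2 difference of 0.15, and HERC6, a relative of HERC5, had -0.10. Of the 6 genes IFI6, IFI27, IFI35, IFI44, IFI44L and XAF1, none passed. IFI27 and IFI6, strongly induced in most interferon responses, differed by -0.01 and 0.02. XAF1, a proapoptotic gene, differed by -0.22 on 1 probe set, with the other 2 of its 3 slightly above 0 and an average of -0.03. Those 2 were weak, with mean signals of 3.82 and 3.44 against 5.04, so the average rests largely on weak signals. IFI44 and IFI44L had -0.11 and -0.10 (IFI44 -0.53 on its other probe set), the second at a signal above that of only 16.3% of genes. The letters were wide apart for IFI35, at 7.95 and 8.02 in the treated and untreated A arrays and 8.77 to 8.995 in the C and D arrays.

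Genes of antigen processing and the guanylate-binding proteins, which respond mostly to interferon gamma, were not called either. B2M, the invariant chain of MHC class I, had 12.5 ± 0.08 in treated and 12.5 ± 0.03 in untreated cells (SD, n = 4 each), and its interval ran from -0.19 to 0.18. The immunoproteasome subunits PSMB8 and PSMB9 and the peptide transporter TAP1 differed by -0.07, -0.11 and -0.04, and each had letter B lowest in both groups. GBP2 was lower in 4 of 4 pairs (8.23 ± 0.23 in treated and 8.52 ± 0.13 in untreated cells, SD, n = 4 each). Its difference of -0.30 did not pass (limma adjusted p = 0.553, and 0.16 with the block), nor did the -0.42 of its other probe set. GBP1 had -0.08 (-0.26 on its next probe set by mean signal), with treated arrays higher in A and B and lower in C and D.

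PARP9, PARP14 and DTX3L act together downstream of interferon, PARP9 and DTX3L as a complex of an ADP-ribosyltransferase and a ubiquitin ligase. PARP9 had 5.794, 5.688, 5.393 and 5.601 in treated cells and 6.041, 6.318, 6.188 and 6.195 in untreated cells. The groups did not overlap, and letter A differed least. The difference was -0.57 ± 0.11 SE, 1.48-fold lower (limma adjusted p = 0.0538; 0.0128 with the block), but the other of its 2 probe sets had 0.06, and their average -0.25 (adjusted p = 0.314 without the block). DTX3L had 7.81, 7.85, 7.67 and 7.93 in treated cells and 7.68, 8.07, 8.09 and 8.24 in untreated cells, so that letter A was higher after TGFβ and the other letters lower. Its difference was -0.20 ± 0.12 SE (limma adjusted p = 0.788; 0.399 with the block), and PARP14 had -0.20, also with letter A higher and the others lower. PML and SP100 encode the scaffold and a partner in nuclear bodies. PML had the most positive difference of the list, 0.31 ± 0.16 SE (limma adjusted p = 0.703; 0.302 with the block). It came from letters C and D, which were higher by 0.81 and 0.43, whereas A and B hardly differed, and 9 of its 10 probe sets had that sign, with an average of 0.16. SP100 had 8.05 ± 0.18 in treated and 8.13 ± 0.15 in untreated cells (SD, n = 4 each).

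**Figure D3:**
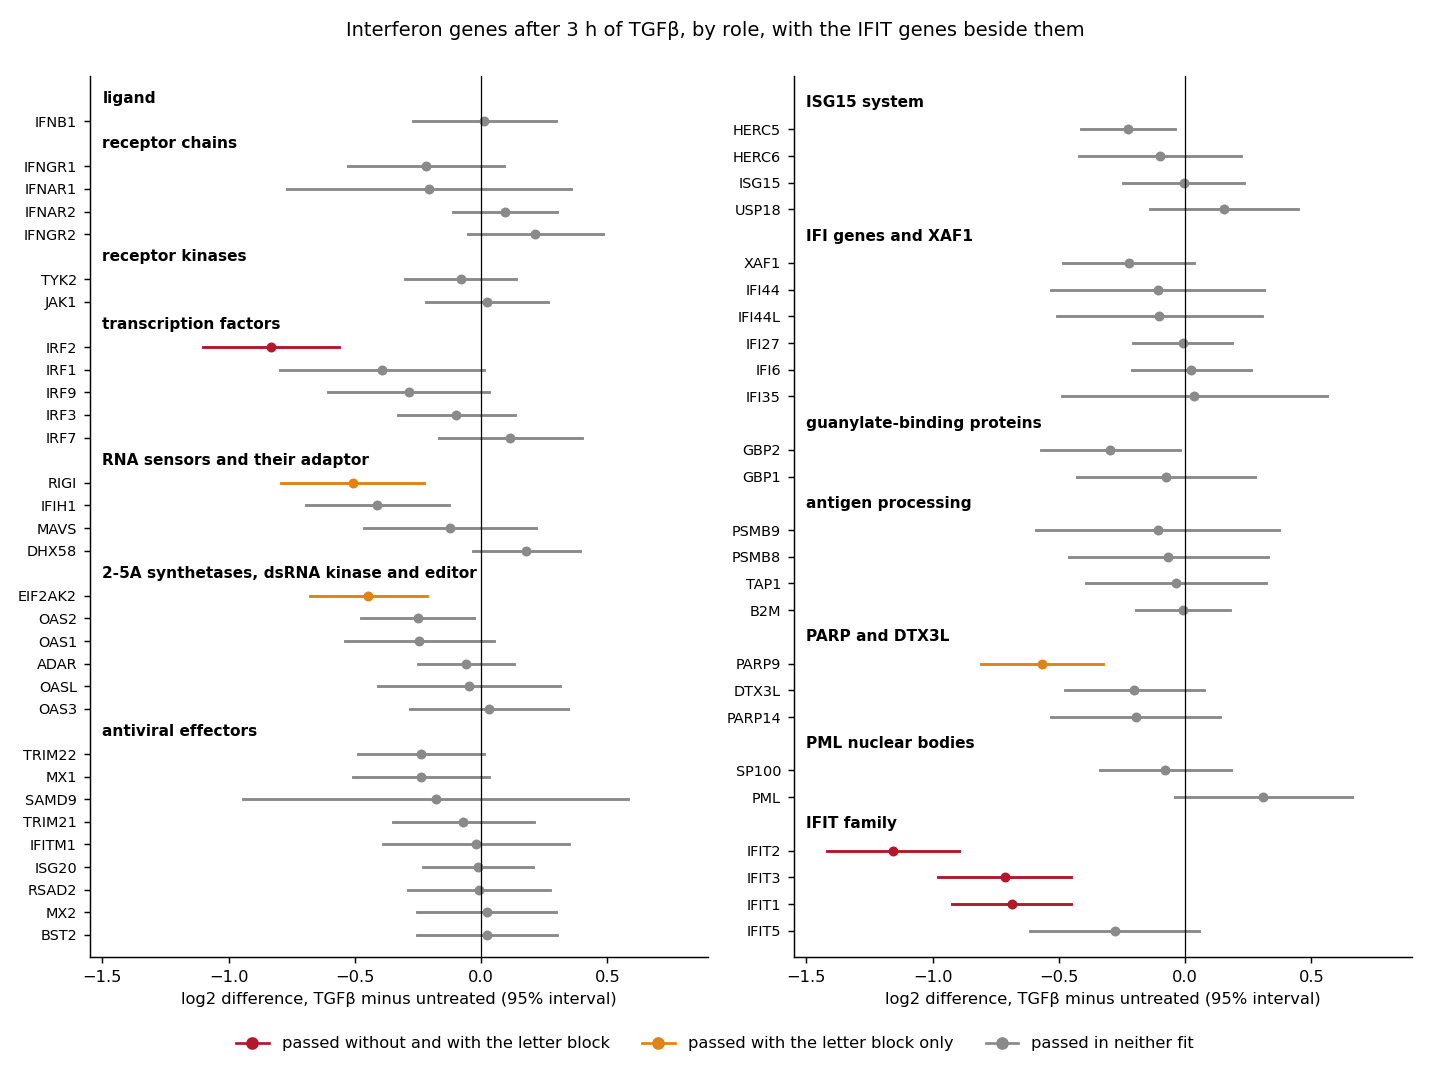
Log2 difference between TGFβ-treated and untreated cells (horizontal axis) with its 95% interval from the fit without a block, for the 52 genes by role and the 4 IFIT genes. IRF2 and 3 IFIT genes passed in both fits (red), PARP9, RIGI and EIF2AK2 only with the letter as a block (orange).

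The promoters were read for both interferon motifs, since members that share a motif can be set side by side. The sequences are from RefSeq (GRCh38.p14), with 250 bases before and 50 after each annotated start, and 41 of the 53 genes had at least 1 such start. The ISRE core was searched as GAAA, any 2 bases and GAAA, and GAS as TTCNNNGAA, both on either strand. The ISRE core was found in 26 of 57 promoters of these genes (45.6%), against 3.57% of all 35116 promoters, and GAS in 13 (22.8%), against 7.66%. Both were held by 7 of the 57. The 23 measured genes with an ISRE match had a median log2 difference of -0.07, and the 17 without one had -0.11. With GAS, 12 genes had a median of -0.05, and the 28 without it had -0.10. A match describes these letters in this window and shows no binding.

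Shown are the promoters with an ISRE match among the 6 genes without overlap, then DTX3L, and ISG15 and IFI6 as genes with matches and no difference. Capitals mark the ISRE matches, and each sequence is on the gene's own strand. IRF2 was not searched, and RIGI had no match in its window. The windows lie at chr2:162318635-162318934 (IFIH1, minus strand), chr2:37156931-37157230 (EIF2AK2, minus), chr4:88456869-88457168 (HERC5, plus), chr3:122564251-122564550 (PARP9, minus), chr3:122564088-122564387 (DTX3L, plus), chr1:1013247-1013546 (ISG15, plus) and chr1:27672143-27672442 (IFI6, minus).
IFIH1: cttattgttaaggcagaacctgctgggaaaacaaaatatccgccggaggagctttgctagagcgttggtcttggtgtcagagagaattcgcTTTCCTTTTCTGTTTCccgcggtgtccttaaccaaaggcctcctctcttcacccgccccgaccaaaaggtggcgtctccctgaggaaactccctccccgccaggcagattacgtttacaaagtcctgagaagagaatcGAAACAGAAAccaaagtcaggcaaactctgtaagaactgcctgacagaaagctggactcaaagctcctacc
EIF2AK2: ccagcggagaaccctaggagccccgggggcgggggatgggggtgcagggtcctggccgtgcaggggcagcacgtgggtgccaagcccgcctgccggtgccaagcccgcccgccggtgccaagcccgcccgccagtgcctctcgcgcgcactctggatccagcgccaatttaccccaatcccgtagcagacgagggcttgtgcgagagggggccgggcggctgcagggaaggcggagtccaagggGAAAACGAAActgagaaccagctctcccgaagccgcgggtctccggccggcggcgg
HERC5: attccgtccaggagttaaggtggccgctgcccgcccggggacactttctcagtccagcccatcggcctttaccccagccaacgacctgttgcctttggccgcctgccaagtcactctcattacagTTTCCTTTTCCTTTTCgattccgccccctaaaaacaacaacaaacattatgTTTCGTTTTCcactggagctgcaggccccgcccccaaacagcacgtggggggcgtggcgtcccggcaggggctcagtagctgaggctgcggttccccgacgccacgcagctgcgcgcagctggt
PARP9: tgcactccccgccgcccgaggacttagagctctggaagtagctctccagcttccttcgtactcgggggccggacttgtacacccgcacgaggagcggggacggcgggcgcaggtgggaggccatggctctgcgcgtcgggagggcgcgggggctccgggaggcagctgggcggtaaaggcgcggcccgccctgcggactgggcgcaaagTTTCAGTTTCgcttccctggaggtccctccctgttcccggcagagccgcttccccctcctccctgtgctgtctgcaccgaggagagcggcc
DTX3L: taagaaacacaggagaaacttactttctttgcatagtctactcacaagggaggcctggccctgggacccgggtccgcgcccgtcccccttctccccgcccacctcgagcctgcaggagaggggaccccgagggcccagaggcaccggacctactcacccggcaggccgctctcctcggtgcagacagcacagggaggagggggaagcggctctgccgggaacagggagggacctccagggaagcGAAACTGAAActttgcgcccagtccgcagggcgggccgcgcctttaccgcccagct
ISG15: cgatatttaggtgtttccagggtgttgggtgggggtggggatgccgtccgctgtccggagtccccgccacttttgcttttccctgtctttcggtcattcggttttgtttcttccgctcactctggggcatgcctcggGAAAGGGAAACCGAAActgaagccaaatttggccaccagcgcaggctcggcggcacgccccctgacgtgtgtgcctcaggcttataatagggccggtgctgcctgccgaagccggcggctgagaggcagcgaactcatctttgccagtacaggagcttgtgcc
IFI6: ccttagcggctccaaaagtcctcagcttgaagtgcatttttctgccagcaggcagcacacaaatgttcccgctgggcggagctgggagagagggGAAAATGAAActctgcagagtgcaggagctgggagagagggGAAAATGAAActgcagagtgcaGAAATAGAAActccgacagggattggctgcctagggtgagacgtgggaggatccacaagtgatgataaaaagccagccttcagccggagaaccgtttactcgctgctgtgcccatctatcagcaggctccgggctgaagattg

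In the promoter pair of PARP9 and DTX3L the match is 1 and the same stretch, at chr3:122564332-122564341, read on opposite strands. On each gene's own strand it begins 41 bases before this start of PARP9 and 6 bases before that of DTX3L. As the match is 10 bases long, it runs across the start of DTX3L. The genes thus share the motif, and their log2 differences were -0.57 and -0.20. IFIH1, HERC5 and IFI6 hold 3 matches each, with log2 differences of -0.41, -0.23 and 0.02. EIF2AK2 holds 1 and had -0.45, and ISG15 holds 2 and had -0.01. In IFIH1, HERC5 and ISG15 some of these matches overlap and were counted separately, so the counts are not of separate stretches.

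The IFIT genes, which encode antiviral RNA-binding proteins, are the interferon targets against which the list was set. IFIT2 had 7.45, 7.44, 7.28 and 7.20 in treated cells and 8.22, 8.66, 8.65 and 8.47 in untreated cells, 2.23-fold lower. IFIT1 and IFIT3 were 1.61-fold and 1.64-fold lower. When 1 array was left out, IFIT2 passed in 8 of 8 limma fits, IFIT1 in 4 of 8 (adjusted p from 0.0172 to 0.0889; not without treated C or D or untreated C or D) and IFIT3 in 3 of 8 (0.0137 to 0.111; nor without untreated B). IFIT3 also missed the threshold as the mean of its probe sets (0.0912), and all 3 passed in every block fit. The fourth gene, IFIT5, had -0.28 and did not pass (limma adjusted p = 0.731; 0.288 with the block). IRF2, at 1.78-fold, was the one gene of the list in that range, followed by PARP9, RIGI and EIF2AK2 at 1.48-fold, 1.42-fold and 1.36-fold. For 42 of the 52 genes the 95% interval of the difference lay above a fall of 1.5-fold (-0.585 on the log2 scale), and with the block for 46. ISG15, IFI27, IFI6, BST2, B2M and ADAR were among the 42, so a fall of the size seen in IFIT1 was outside their intervals. The intervals of IRF1, SAMD9 and IFNAR1 reached beyond it. The interval typically reached 0.28 to either side, or 0.22 with the block.

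By letter, the list was lower in 34, 40, 28 and 38 of the 52 genes in A, B, C and D, with median differences of -0.07, -0.11, -0.04 and -0.14. Over all genes the shares lower were 46.7%, 57.1%, 42.6% and 49.9%, so C, the letter with the fewest lower genes in the list, also had the fewest in all genes.

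**Figure D4:**
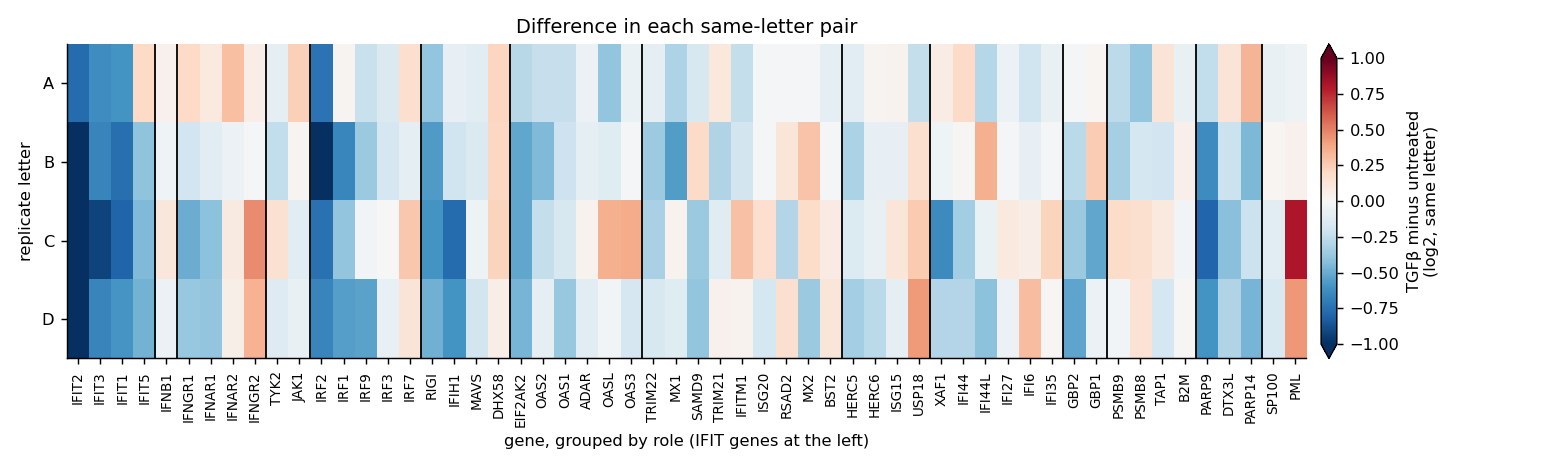
Log2 difference, TGFβ minus untreated, in each same-letter pair (rows A to D) for the IFIT genes and the 52 interferon genes (columns, grouped by role), with blue for lower and red for higher after TGFβ. IRF2, RIGI and EIF2AK2 are blue in all 4 rows like IFIT1 to IFIT3, whereas PML is clearly red only in C and D.

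Other genes of interferon signalling, 71 measured of 76 listed, gave 0 calls in the fit without a block (limma; at an unadjusted p under 0.05, 7 were lower and 3 higher, and of all genes 4.19% and 3.95%). With the block 2 passed, both lower; that is 2.82% of the 71, close to the 2.18% of all genes. SAMD9L, a relative of SAMD9, differed by -0.48 ± 0.26 SE (adjusted p = 0.727; 0.0298 with the block), and GBP3, another guanylate-binding protein, by -0.42 ± 0.17 SE (adjusted p = 0.525; 0.0425 with the block), each in 4 of 4 pairs. The mean of its probe sets gave -0.27 for SAMD9L (adjusted p = 0.764 without the block). Neither passed the block fit without letter B, C or D, when 3 pairs remained. The smallest p-values without the block were those of TNFSF10, the death ligand TRAIL (-0.60 ± 0.16 SE), TRIM25, a ubiquitin ligase that activates RIG-I (-0.32 ± 0.09 SE, no overlap), the chemokine CCL2 (0.31 ± 0.09 SE, at a signal of 2.56 to 3.13) and TICAM1, the adaptor of TLR3 (0.43 ± 0.15 SE). None of them passed (limma adjusted p = 0.175, 0.268, 0.271 and 0.406; 0.065, 0.104, 0.0912 and 0.0568 with the block). In all, 50 of the 71 had a negative difference, with a median of -0.09.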

How the data were processed

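Total RNA was labelled with biotin and hybridised to Affymetrix arrays, per the labels' protocols. The authors deposited 1 log2 value per probe set and array, made with RMA (background correction, normalization between arrays, summary of probes), per the submitters' processing notes; its version, and which arrays were normalized jointly, is not given in the sources used here. The log base was taken to be 2, as is usual for RMA, and the values ran from 1.68 to 13.9. Array medians were 4.62 to 4.66. The number of arrays limits the precision.

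Of 54675 probe sets 62 were Affymetrix controls. GEO's platform annotation of 2016 names 1 gene for 41091 of the other 54613, several for 1801 and none for 11721, and only the first were used; the Entrez identifiers of 41037 were found in RefSeq, which altered 0 symbols. The model, from limma 3.58.1 (R 4.3.3; two-sided moderated tests by lmFit with eBayes), was fitted to all 19777 genes with Benjamini-Hochberg adjustment, and was tested on simulated data. Same-letter arrays correlated at 0.49, 0.69, 0.34 and 0.30 (A to D) in their deviations from the group means over genes, so the letters were taken to pair them, although treated D correlated slightly better with untreated C (0.33); this comes from the data, and the labels name no block. The fit without the block is the main one.

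The members, lists, tests and alternatives were chosen with earlier results of these data known. Fold changes with errors are given, by a rule written beforehand, for members that passed in either fit or had no overlap, the 2 with the smallest p in each role and the 4 with the highest signal; for other pathway genes, those that passed in either fit and the 4 with the smallest p; and for fixed genes (IFIT1, IFIT2, IFIT3, IFIT5, SMAD7, SKIL). Differences of further members are given without a test. Alternatives were the replicate block, the upper 60% of signals, centring on array medians, a further quantile normalization, eBayes with a robust, trended prior, probe sets averaged per gene, leaving out probe sets ending in _x_at or _s_at, and leaving out arrays or letters. Plots come from matplotlib 3.10.9 (Python 3.11.15).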

Additional observations from a re-analysis of the deposited data

Results flagged for a closer look

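In the 28 genes of the list with a fold change and an error, each group of 4 arrays was tested for a single array far from the rest with Dixon's criterion. Of 56 groups 2 held one, where chance alone would flag about 1 in 20 groups. B2M had 12.564 in untreated replicate B, against 12.491 to 12.5 in the other untreated arrays, a gap of under 0.1. SP100 had 8.358 in untreated replicate A, against 8.031 to 8.074 in the other untreated arrays, and its treated replicate A was the highest treated array as well.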

How the results depend on the processing

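The letter as replicate block raised the number of list genes that passed to 4, against 1 without it, and that of other pathway genes to 2, against 0; beyond PARP9, RIGI, EIF2AK2, SAMD9L and GBP3 it changed no call in either list. Of all 19777 genes 114 passed without the block and 705 with it. Leaving out 1 array gave 0 to 2 list genes (0 without treated replicate D, 2 without treated replicate A) and 0 to 1 other pathway gene. The block without letter A gave 8 and 5, and without letter D it gave 2 list genes. List genes without overlap numbered 6 to 11 when 1 array was left out (main value 6) and 14 without letter A. Those lower in every remaining pair numbered 12 to 21 (main value 12), with 19 without letter A and 21 without letter C. Fewer arrays make both criteria easier to meet in any gene. The shares of all genes at these settings are not given here, so these counts cannot be set against a background. The median of the list lay between -0.1127 and -0.049 in every fit. Signs turned for genes near 0: IFNB1 (-0.0012 with centring, -0.0183 with quantile normalization, -0.021 in the block without C, -0.0644 to 0.1083 without 1 array), B2M (0.0118 with quantile normalization, 0.0127 in the block without A, -0.0456 to 0.0201), JAK1 (-0.0352 as mean of probe sets, -0.0487 in the block without A, -0.0505 to 0.0832), PSMB8 (0.0413 in the block without A, -0.2006 to 0.0551), PSMB9 (-0.2641 to 0.0843), BST2 (-0.01 in the block without D, -0.0424 to 0.1004), IFI44 (-0.278 to 0.0204) and GBP1 (0.072 in the block without C, -0.1796 to 0.0165), where unmarked ranges are those without 1 array. Without probe sets ending in _x_at or _s_at, PARP9 had 0.063, IFNGR1 0.2492, IFI44 -0.529 and GBP1 -0.2615, from other probe sets. The IFNGR1 probe set used there was weak (means of 3.09 in treated and 2.84 in untreated cells). Its second probe set by mean signal, left out by its ending, had -0.39. As the mean of probe sets, IFIH1 had -0.0834, PARP9 -0.2518, PML 0.1577, XAF1 -0.0333, IFNGR1 -0.1202, IFI44 -0.3191, GBP1 -0.1678, SAMD9L -0.2747 and SKIL 0.8787. By that mean EIF2AK2 had -0.3048. For IFIH1 and XAF1 the mean rests largely on weak probe sets. The cause of the other changes was not tested. For IFNB1, RSAD2 and IFI44L, whose signals were above those of 15.6%, 15.7% and 16.3% of genes, a difference cannot be told from background.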
